A study of Caenorhabditis elegans with 2 samples.

Results

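The heterochronic protein genes examined here are lin-14, lin-28, hbl-1, lin-46, lin-41, lin-29 and lin-42, 7 of the 19973 protein-coding genes on the nuclear chromosomes of *Caenorhabditis elegans*. They were taken by name, and all 7 names matched a protein-coding gene. Each was searched for summits, the highest points of peaks, of a tagged CEH-8 in its body and up to 5000 bp on either side. CEH-8, a homeodomain transcription factor whose gene marks the RIA interneurons, was precipitated with an anti-GFP antibody from whole larvae of strain OP760, which has the unc-119(tm4063) mutation and the transgene wgIs760, written ceh-8::TY1::EGFP::3xFLAG with unc-119(+). The animals were pooled males and females at the L1 stage, 6 hours old, synchronized by starvation after bleaching. Both biological replicates came from this 1 transgenic line and form 1 group, so no conditions could be compared, and peaks of an untagged strain were not analysed here. Chromatin of whole animals was used, so a summit cannot be assigned to a cell type.

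The heterochronic genes set the order of larval fates in the worm. lin-14, lin-28 and hbl-1 act early and are turned down by microRNAs, among them lin-4 and the let-7 family, so that later programmes can begin. lin-41 and lin-29 act at the transition from larva to adult, and lin-42 is related to the period clock genes and times the moults.

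The deposited lists held 30000 peaks in each replicate, 30000 in the pooled reads of both and 1891 in the IDR list, which the authors derived from the other 3 and which held the strongest pooled peaks by signal. IDR, the irreproducible discovery rate, measures how alike peaks rank. The signal of a peak is the authors' own value. It has no stated scale and is used here only to rank peaks within a list, rank 1 being the strongest. Read depth is unknown. All coordinates are on ce11, the same assembly as WBcel235.

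Of the 7 genes, lin-14, lin-28, hbl-1, lin-46 and lin-42 had an IDR summit in the searched window, and lin-41 and lin-29 had none. This is 5 of 7, where 21.2% of all protein-coding genes had at least 1. Among genes of at least 10000 bp, the length class of lin-14, lin-29 and lin-42, the share was 32.2%, against 20.6% of shorter ones. On X, which carries lin-14 and hbl-1, 683 of 2731 protein-coding genes had one, against 3548 of 17242 on the autosomes. The 5 genes held 8 IDR summits, or 0.550 per 10000 bp of window, against 0.197 over the windows of all protein-coding genes and 0.174 over those of genes of at least 10000 bp. At least 2 IDR summits lay at 3 of the 7 (lin-14, lin-28 and lin-42), against 4.05% of all protein-coding genes and 9.32% of those of at least 10000 bp. These shares are descriptions with no test, since the genes were chosen with earlier results of these data known, and counts over so few genes or summits are imprecise in either direction.

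The 8 summits leaned to the weaker side of the IDR list, with 3 of them among its stronger 50%. Their median signal in the IDR list was 118 and their median rank 1123 of 1891, against a median signal of 128 over all IDR peaks. Of the 8, 5 lay in introns and 3 outside the gene bodies, all 3 upstream. Within 1000 bp of an annotated start of the gene itself lay 3, of which 2 were at lin-28 and 1 at hbl-1. Counting the start of any coding gene it was 4 of the 8, with that of lin-46, against 58.3% of all IDR peaks. Introns held 23.2% of all IDR peaks, and 65.3% lay outside coding genes. The length of introns was not taken into account.

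**Figure D1:**
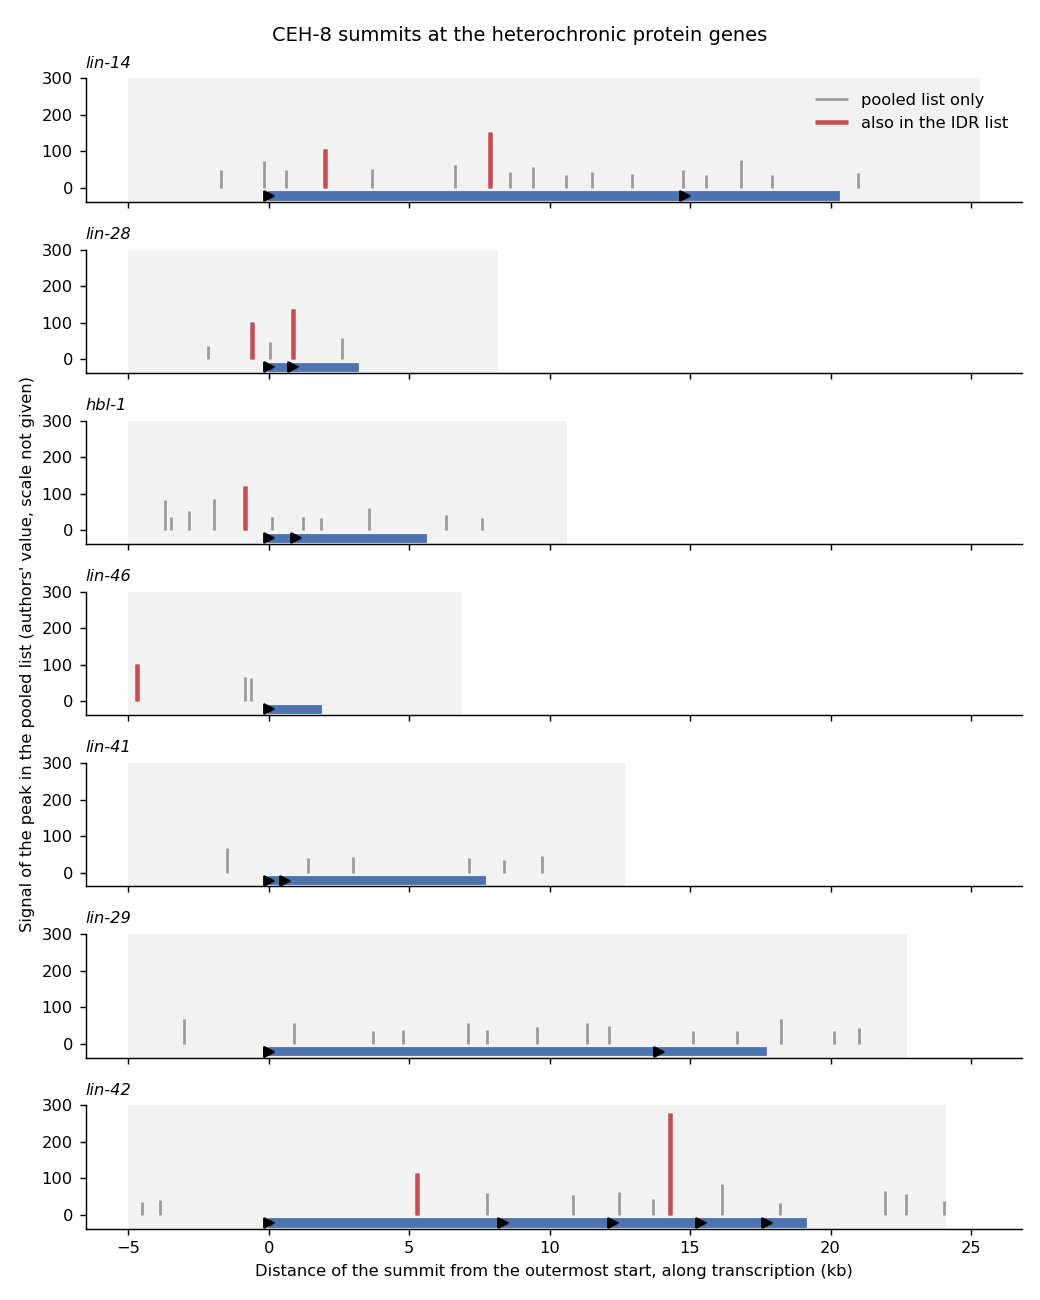
Summits in the window of each gene, by distance from its outermost annotated start along the direction of transcription (x axis, kb) and signal in the pooled list (y axis). Blue bars are gene bodies, black arrowheads annotated starts, grey shading the window of 5000 bp on each side, red lines summits also in the IDR list and grey lines other pooled summits. The tallest line, with a signal of 280, stands inside lin-42, and lin-41 and lin-29 have no red line.

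Whether a summit was strong in both replicates was asked next, counting it as found in a replicate when one of the 1891 strongest peaks of that replicate had its summit within 200 bp. Of the 8, 3 were found in both replicates, 2 in replicate 1 alone and 3 in replicate 2 alone. This is 3 of 8, against 58.0% of all IDR peaks. Taken singly, 5 of the 8 were found in replicate 1 and 6 in replicate 2, against 79.4% and 76.2% of all IDR peaks. The 3 were both summits of lin-28 and the stronger one of lin-14. Counting summits of any rank, all 8 had one within 200 bp in replicate 1 and 7 had one in replicate 2, against 99.4% and 93.9% of all IDR peaks. The exception in replicate 2 was the strongest summit of the 8, in lin-42.

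**Figure D2:**
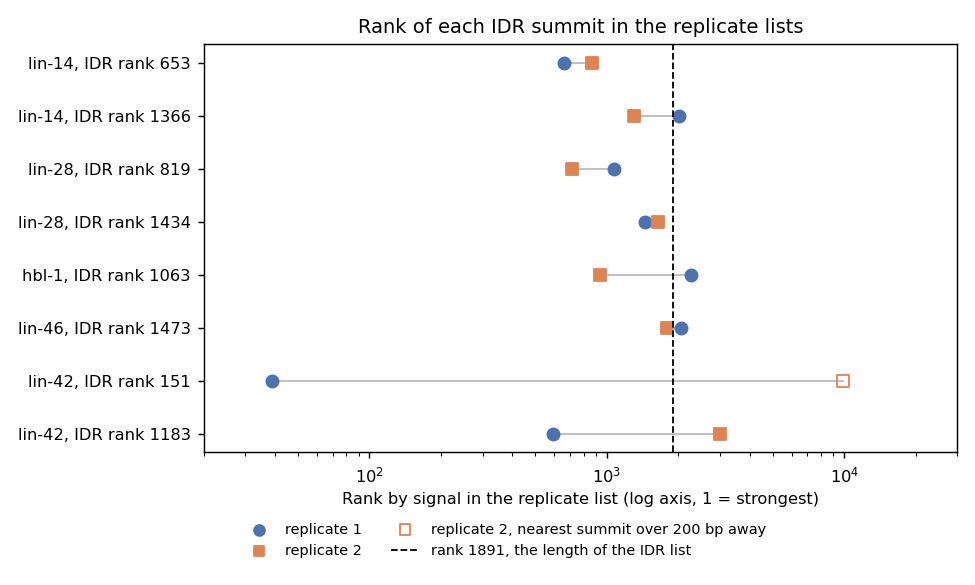
Rank of each of the 8 IDR summits in the list of replicate 1 (blue circles) and replicate 2 (orange squares), on a log axis where 1 is the strongest. The dashed line is rank 1891, and the open square is a replicate 2 summit 603 bp from the IDR summit. The 3 summits with both points left of the line are both of lin-28 and the stronger one of lin-14, and the pair farthest apart is that of lin-42, with ranks 39 and 9851.

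lin-14 encodes a nuclear protein that promotes L1 fates and is the classic target of lin-4. The gene (WBGene00003003, X, 11465560 to 11485871, plus strand) spans 20312 bp and has 2 annotated starts. Its stronger IDR summit (peak X, 11473275 to 11473624, signal 152, rank 653) was intronic, 7890 bp downstream of the outer start and 6911 bp before the other one. It had a signal of 86.0 and rank 657 in replicate 1 and a signal of 65.2 and rank 867 in replicate 2. The summits of both replicates were within 2 bp of it, so that place and rank were much alike in both.

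The weaker IDR summit of lin-14 (peak X, 11467377 to 11467726, signal 106, rank 1366) lay 1992 bp inside the gene, in an intron. It ranked 2016 in replicate 1 and 1304 in replicate 2. It was 22 bp from the start of T25C12.7, a non-coding RNA gene on the other strand, and the stronger summit was 268 bp from the start of the non-coding RNA gene T25C12.6. Just before the first start of lin-14 itself there was no IDR summit. The pooled summit there, 171 bp upstream, had a signal of 74.2 and rank 2730. A replicate 2 summit 176 bp upstream ranked 1801, but the replicate 1 summit 171 bp upstream ranked only 14057.

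The 101 bases around the stronger lin-14 summit are shown, since this was the summit of the X-linked genes that was strong in both replicates. They run from 50 bp before to 50 bp after it on the plus strand of WBcel235 (RefSeq sequence), X:11473400-11473500, and 61.4% of them are G or C, against a median of 45.5% over all IDR summits.
lin-14 summit: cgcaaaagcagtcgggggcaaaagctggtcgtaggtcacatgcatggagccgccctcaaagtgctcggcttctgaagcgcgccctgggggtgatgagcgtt

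lin-28 encodes an RNA-binding protein that promotes L2 fates and blocks the maturation of let-7. The gene (WBGene00003014, I, 8407630 to 8410804, minus strand) is only 3175 bp long and had 2 IDR summits, or 1.52 per 10000 bp of window, the highest density of the 7 genes. The stronger (peak I, 8409746 to 8410095, signal 137, rank 819) lay 1 bp before the start of the shorter annotated transcript, in an intron of the longer one. It had a signal of 67.5 and rank 1071 in replicate 1 and a signal of 71.5 and rank 716 in replicate 2. The weaker (peak I, 8411204 to 8411553, signal 103, rank 1434) lay 575 bp upstream of the outer start, with ranks of 1455 and 1640 in replicates 1 and 2. Each start of lin-28 thus had an IDR summit within 1000 bp upstream, and at both the replicates' summits lay within 4 bp of the IDR summit.

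hbl-1 encodes a zinc-finger transcription factor of the hunchback kind that prevents later fates from appearing early. The gene (WBGene00001824, X, 5822142 to 5827755, plus strand) had 1 IDR summit, 838 bp upstream of its outer start (peak X, 5821129 to 5821478, signal 121, rank 1063). The nearest start of any gene was that of the non-coding RNA gene F13D11.8, 730 bp away. The summit had a signal of 46.3 and rank 2259 in replicate 1 and a signal of 63.3 and rank 934 in replicate 2. In replicate 1 the strongest summits lay elsewhere, 1997 bp upstream (rank 1293) and 3687 bp upstream (rank 1443), both over non-coding RNA genes. The pooled summits at those places, 1928 and 3689 bp upstream, ranked 1940 and 2138, just past the end of the IDR list. The region before hbl-1 therefore held 3 of the stronger pooled summits, with the replicates ordering them differently.

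lin-46 encodes a scaffold-like protein that acts downstream of lin-28, which represses it, and opposes hbl-1. The gene (WBGene00003031, V, 12968855 to 12970730, plus strand) had 1 IDR summit, near the edge of the window, 4682 bp upstream (peak V, 12963998 to 12964347, signal 102, rank 1473). It ranked 2055 in replicate 1 and 1792 in replicate 2. It lay 203 bp before the start of srd-35, a gene of the serpentine receptor family, and was the only one of the 8 IDR summits whose nearest coding start belonged to another gene. Counting the starts of non-coding genes too, the nearest start belonged to another gene at 5 of the 8. Nearer to lin-46 itself, pooled summits 830 and 617 bp upstream ranked 3724 and 4263.

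The summits of hbl-1 and lin-46 both had TAATTG, a homeodomain-type site, within 50 bp, and the other 6 had none. Over all IDR summits 11.6% had it, against 7.91% of the flanking windows of the same length centred 250 bp to each side. TAATTA, which many homeodomains of the paired type bind, was at 0 of the 8, where 6.93% of all IDR summits and 5.29% of flanking windows held it. The palindrome TAATNNNATTA was at 0 of the 8 and at 1.80% of all IDR summits (0.502% of flanking windows). Both sequences are on the plus strand, X:5821254-5821354 and V:12964123-12964223, with capitals marking the match, which reads TAATTG on the other strand. The match lies 35 bases after the hbl-1 summit and 41 bases after the lin-46 summit.
hbl-1 summit: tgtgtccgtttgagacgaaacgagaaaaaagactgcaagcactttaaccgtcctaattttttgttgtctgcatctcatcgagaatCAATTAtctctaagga
lin-46 summit: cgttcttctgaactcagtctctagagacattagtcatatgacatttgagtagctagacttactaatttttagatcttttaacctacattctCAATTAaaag

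lin-42 encodes the worm's PERIOD-related protein, whose transcript rises and falls with each moult. The gene (WBGene00018572, II, 1233236 to 1252359, minus strand) has 5 annotated starts and held the strongest summit of all 7 genes, at rank 151 of the IDR list (peak II, 1238009 to 1238143, signal 280). This summit lay in an intron, 1122 bp upstream of one of the inner starts. Replicate 1 had a summit 21 bp away with a signal of 276 and rank 39. The nearest summit of replicate 2 was 603 bp away and ranked 9851, with a signal of 27.9. The peak was 135 bp wide where the median IDR peak was 350 bp, and 7.51% of IDR peaks were under 200 bp.

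The other IDR summit of lin-42 (peak II, 1246888 to 1247237, signal 114.7, rank 1183) lay 5296 bp inside the gene, in an intron and over the non-coding RNA gene F47F6.15. It ranked 591 in replicate 1, with a signal of 90.2, and 2989 in replicate 2, with a signal of 38.8. Another summit, over a coding exon, ranked 1120 in replicate 1, where it lay 16162 bp inside the gene, and 2069 in the pooled list. The nearest summit of replicate 2, 15916 bp inside, ranked 18002. All 3 thus ranked higher in replicate 1, and none of the 1891 strongest peaks of replicate 2 was in the lin-42 window. Some weaker lin-42 summits ranked higher in replicate 2. One of them ranked 16785 in replicate 1 (7609 bp inside the gene) and 4839 in replicate 2 (7758 bp inside).

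Both lin-42 summits were rich in G and C, with 69.3% and 59.4% of the 101 bases around them, against a median of 45.5% and a 90th percentile of 61.4% over all IDR summits. The median was 56.4% over the 404 IDR peaks found in replicate 1 alone and 45.5% over those found in both. Over the whole IDR list, peaks found in replicate 2 alone were not examined for it. Those among the 8, the weaker summit of lin-14 and the summits of hbl-1 and lin-46, had 49.5%, 38.6% and 31.7%. Of the summits found in both replicates, the stronger one of lin-14 had 61.4% and those of lin-28 had 49.5% and 37.6%. The median over the 8 was 49.5%. The part of base composition in the difference between replicates was not tested. GAGAGA, counted on both strands, was within 50 bp of both lin-42 summits and of no other of the 8, where 21.6% of all IDR summits and 7.14% of flanking windows held it. The sequences are shown because they carry these repeats. They are on the plus strand, opposite to the gene, at II:1238041-1238141 and II:1247013-1247113. Capitals mark GAGAGA or TCTCTC, which reads GAGAGA on the other strand. In the stronger summit 3 overlapping matches form 1 run.
lin-42 stronger summit: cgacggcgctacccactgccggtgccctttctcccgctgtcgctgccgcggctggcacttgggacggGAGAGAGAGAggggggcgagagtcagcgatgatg
lin-42 weaker summit: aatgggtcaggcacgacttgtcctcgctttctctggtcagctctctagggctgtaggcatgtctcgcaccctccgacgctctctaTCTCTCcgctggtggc

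lin-41 encodes an RNA-binding protein of the TRIM-NHL family and is a main target of let-7. The gene (WBGene00003026, I, 9334800 to 9342496, minus strand) had no IDR summit in its window, and the nearest one outside lay 30647 bp from the gene. Its strongest pooled summit, 1468 bp upstream of the outer start, had a signal of 67.4 and rank 3481, against a lowest signal of 88.0 in the IDR list. Replicate 1 had a summit at the same place (signal 39.3, rank 3306) and replicate 2 had one 1522 bp upstream (signal 35.5, rank 4064). The replicates thus placed their strongest lin-41 summits 54 bp apart, below the strength of the IDR list.

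lin-29 encodes the zinc-finger transcription factor that drives the larva-to-adult switch of the epidermis. The gene (WBGene00003015, II, 11917642 to 11935343, minus strand) had no IDR summit either, and the nearest one lay 25537 bp away. Its strongest pooled summit was 3007 bp upstream (signal 68.7, rank 3315). Both replicates had a summit there, 2986 bp upstream in replicate 1 (rank 13893) and 3017 bp upstream in replicate 2 (rank 4282). Their strongest summits lay elsewhere, that of replicate 1 in an intron (rank 3724) and that of replicate 2 past the far end of the gene, in a coding exon of the neighbouring gene hmg-12 (rank 2365). The window of lin-29 held 14 pooled summits and that of lin-41 held 6, but 94.3% of all protein-coding genes had at least 1 pooled summit of some rank.

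**Figure D3:**
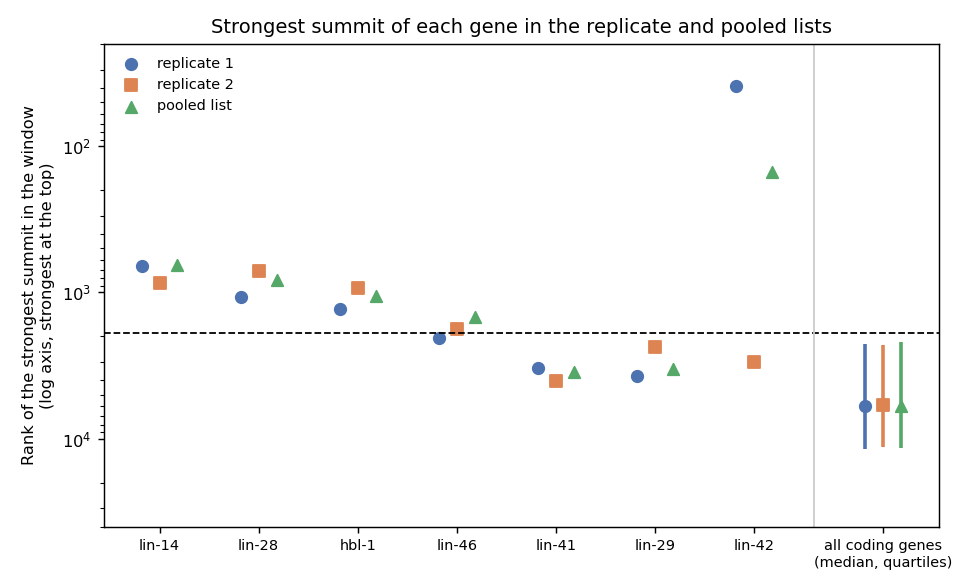
Rank of the strongest summit in the window of each gene in replicate 1 (circles), replicate 2 (squares) and the pooled list (triangles), on a log axis with the strongest at the top. The dashed line is rank 1891, and the last column gives the median (symbol) and quartiles (bars) over all protein-coding genes with a summit. lin-14, lin-28 and hbl-1 lie above the line in all 3 lists, lin-41 and lin-29 below it in all 3, and lin-42 lies above it in replicate 1 and the pooled list but not in replicate 2.

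By the strongest pooled summit, the genes ranked lin-42 (151), lin-14 (653), lin-28 (819), hbl-1 (1063), lin-46 (1473), lin-29 (3315) and lin-41 (3481). All 7 were above the median of the 18838 protein-coding genes with a pooled summit, which was rank 5986. The share of all protein-coding genes with a stronger summit was 2.22% for lin-42, 8.92% for lin-14, 10.9% for lin-28, 13.7% for hbl-1, 17.4% for lin-46, 31.2% for lin-29 and 32.3% for lin-41. The order differed between the replicates. For lin-42 the share was 0.491% in replicate 1 and 29.3% in replicate 2. lin-14 and lin-28 changed places, with 8.57% and 13.3% in replicate 1 and 11.4% and 9.75% in replicate 2, as did lin-29 and lin-41, with 34.2% and 31.3% in replicate 1 and 24.4% and 36.5% in replicate 2. Long windows have more room for a strong summit, and the median length of the 7 genes was 7697 bp, against 2027 bp for all protein-coding genes.

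The genes most like them in the ranks of their strongest summits over replicate 1, replicate 2 and the pooled list were F21E9.2 for lin-14 (ranks 681, 876 and 658), htp-1 for lin-28 (1037, 720 and 811), gldi-8 for hbl-1 (1239, 932 and 1070) and F53B1.3 for lin-46 (1981, 1822 and 1489). For lin-42 the nearest was inx-18, with ranks of 48, 3608 and 173. Its distance, the summed difference of log10 ranks over the 3 lists, was 0.231, against 0.0207 to 0.0278 for the other 4.

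The rest of the pathway was read from a list of 6 microRNAs, 20 regulators and 6 targets. Of the microRNA genes, lin-4, let-7, mir-84 and mir-237 had an IDR summit in the window and mir-48 and mir-241 had none. This is 4 of 6, where 27.6% of all 261 microRNA genes had one. The lin-4 summit lay 360 bp upstream of the annotated hairpin (signal 158, rank 605). That position is in an intron of F59G1.4 and over the non-coding RNA gene F59G1.12, with the F59G1.12 start 172 bp away. The lin-4 summit ranked 253 in replicate 1, but the nearest replicate 2 summit was 251 bp away and ranked 28428. The let-7 summit (signal 119, rank 1092) lay 1879 bp upstream of its outermost start and 103 bp from that of C05G5.2, and with ranks of 1122 and 1187 in replicates 1 and 2 it was the only one of the 4 found in both. The summits of mir-84 and mir-237 ranked 1648 and 1588, at 2330 and 2435 bp from the genes. The windows of mir-48 and mir-241, which are neighbours, shared their strongest pooled summit, with a signal of 62.6.

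Of the 20 regulators, 19 are protein-coding and lep-5 is a long non-coding RNA gene. An IDR summit lay at 13 of them, all protein-coding, and 12 had one found in both replicates, where the shares of all protein-coding genes were 21.2% and 13.5%. They held 19 IDR summits, or 0.527 per 10000 bp of window, close to the 0.550 of the 7 genes. The strongest was at nhl-2, a TRIM-NHL cofactor of the microRNA machinery (signal 673, rank 18). Its replicate ranks were 20 and 23, and it lay 832 bp from the nhl-2 start, over the non-coding RNA gene F26F4.14. The next was at puf-9, a Pumilio-family RNA-binding protein gene (signal 479, rank 39, replicate ranks 51 and 44), 292 bp from its start and over non-coding RNA genes. It was also the IDR summit nearest to hbl-1 outside the hbl-1 window, 13545 bp from that gene.

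daf-12, which encodes the nuclear hormone receptor that links steroid signalling to larval timing, had 4 IDR summits in its introns, 3 of them found in both replicates. The strongest (signal 291, rank 137) ranked 212 and 118 in replicates 1 and 2. daf-9, which encodes the cytochrome P450 that makes the DAF-12 ligand, had 1 in an intron, 110 bp from one of its starts (rank 485, replicate ranks 444 and 714). The Argonaute gene alg-1 (rank 616) and ain-1, a gene of the microRNA silencing complex (rank 788), had 1 each, as did lin-66 (rank 727), 490 bp from its start. The alg-1 summit lay 3311 bp from the alg-1 start and 36 bp from that of the non-coding RNA gene K02B9.6. That of ain-1 lay 713 bp from the ain-1 start. kin-20, the casein kinase gene related to doubletime, had 2, led by one of rank 564 in the neighbouring gene F46F2.5. sea-2 had 3, led by one of rank 1222. At kin-20 and sea-2 only the leading summit was found in both replicates. The single summits of mab-10 (rank 366), nhr-23 (rank 1192) and xrn-2 (rank 1339) lay nearer to the starts of R166.2, C01H6.4 and Y48B6A.1, at 457, 192 and 154 bp. Of the regulators with an IDR summit, only myrf-1 had none found in both replicates. Its single summit (rank 295) had rank 145 in replicate 1 and 3999 in replicate 2. This summit lay 353 bp from the myrf-1 start and over the non-coding RNA gene F59B10.7.

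The regulators dre-1, blmp-1, alg-2, nhr-25, lep-2, lep-5 and pup-2 had no IDR summit. Neither had any of the 6 targets, col-19, mab-3, dmd-3, cki-1, apl-1 and mlt-10. This is 0 of 6, where 21.2% of all protein-coding genes had one.

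**Figure D4:**
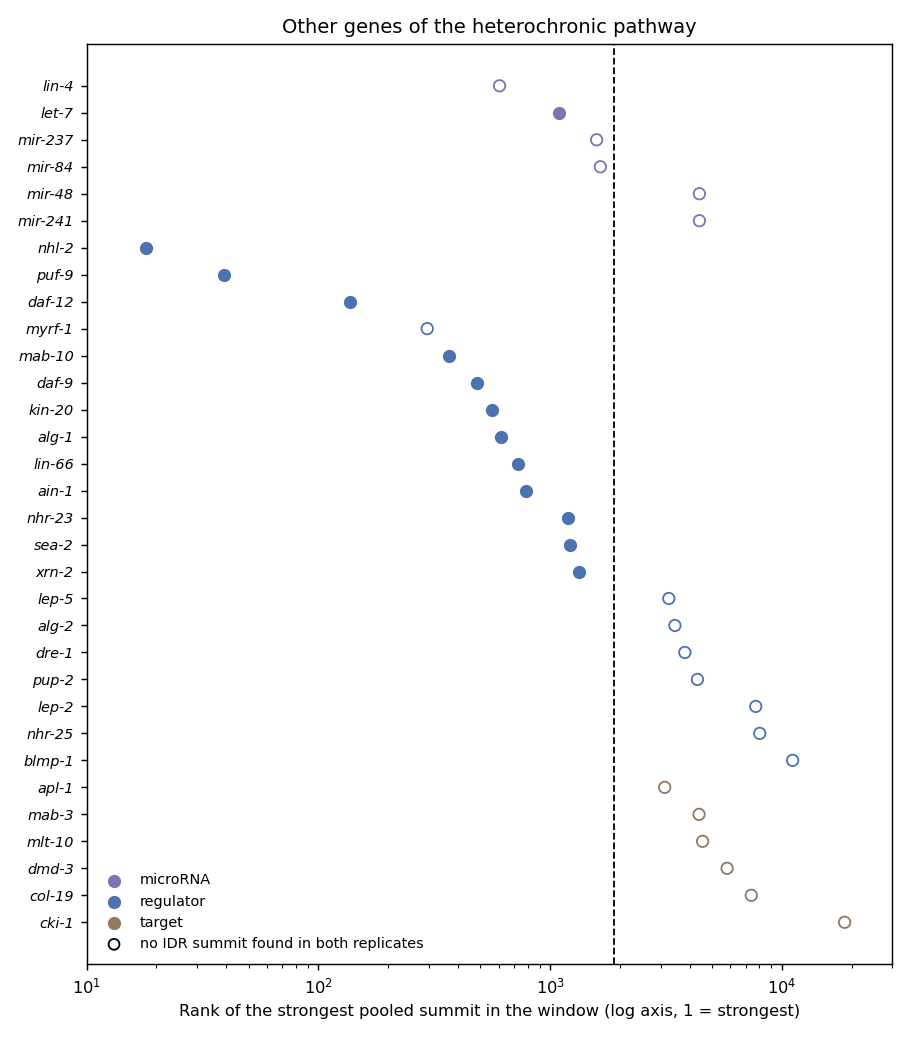
Rank of the strongest pooled summit in the window of each other gene of the pathway, on a log axis where 1 is the strongest. Filled circles had an IDR summit found in both replicates, open circles had none, and the dashed line is rank 1891. The regulators nhl-2, puf-9 and daf-12 lie farthest left, at ranks 18, 39 and 137, and all 6 targets lie right of the line.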

How the data were processed

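The authors deposited peak lists in which each peak has a signal value. Per the file headers, each replicate list was made from its alignment and a control alignment, the pooled list from both alignments and the control, and the IDR list from the other 3, all on ce11. Peak caller, aligner, IDR threshold and signal scale were not given, and depth per sample is unknown. Per the labels, chromatin was sonicated, with fragments of 200 to 800 bp.

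Genes and transcript starts came from the Ensembl release 115 models of WBcel235 and sequence from RefSeq for that assembly. No peak ran past a chromosome end, and 99.9% of annotated start codons read ATG. The IDR list was the 1891 strongest peaks of the pooled list. A summit is column 2 plus column 10 of a list, written from 1, and distances use annotated transcript starts. A summit inside several windows counts for each gene. let-7 was matched through its transcript name and the other microRNAs by name. Python 3.11.15 with numpy 2.4.6 and pandas 2.3.3 was used, and the counting was tested on simulated summits. Motifs were sought on both strands within 50 bp of the summit.

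No test was run, since there is 1 group and the members were taken by name. The members and lists were chosen with earlier results of these data known. All 7 genes were named, with any gene whose start is nearer to one of their IDR summits, the microRNAs and the regulators or targets with an IDR summit. For each member with an IDR summit, 1 gene of similar ranks was named too. The genes without one were named after their values were seen. Alternatives were other windows (2000 bp, 1000 bp or the gene body), the nearest gene alone, the stronger 50% of IDR peaks, each replicate alone, and other distances and ranks for a match between replicates.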

Additional observations from a re-analysis of the deposited data

How the results depend on the processing

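Under windows of 2000 or 1000 bp, 4 genes had an IDR summit (13.0% and 9.9% of all protein-coding genes), since the summit of lin-46 falls outside, and 7 of the 8 summits stayed. With the gene body alone there were 3 genes and 5 summits, where 2.87% of all protein-coding genes had one. This setting depends most on gene length, with a median of 7697 bp for the 7 genes and 2027 bp for all. Long genes were not compared separately under it. Giving each summit only to the nearest gene body of any kind left 3 genes (6.72% of all protein-coding genes) with 6 summits. In the stronger 50% of IDR peaks there were 3 genes with 3 summits, where the share of all was 12.4%. Among IDR peaks found in both replicates, an alternative chosen after seeing the data, there were 2 genes (13.5% of all) with 3 summits. Leaving out either replicate, that is using the 1891 strongest peaks of the other one, gave 4 genes each time, where the shares of all were 20.7% without replicate 1 and 20.6% without replicate 2, with 8 to 9 summits. Without replicate 1 lin-42 had none, and without replicate 2 lin-46 had none. The count of summits found in both replicates was 3 within 100 or 500 bp and with peaks that overlap by at least 50% of each. It was 7 at any rank and 7 among the 5000 strongest of each replicate, where the shares of all IDR peaks were 93.3% and 84.2%. Leaving out the need for 1 replicate gave 5 to 6. No paired analysis was possible because there is only 1 group. Depth is unknown, so the lack of an IDR summit shows only that none was called there at the strength of that list.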
